A study of Mus musculus with 30 samples.

Results

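Interferon-stimulated genes were examined in the livers of germfree and conventional mice as a list of 42 genes chosen by name, each read through the array probes annotated with its symbol. Of the 42, 26 had a probe that passed the detection filter and were tested among 9084 genes in all. Germfree mice live without any microbes, and conventional mice carry an ordinary microbiota. The 14 germfree and 16 conventional animals were C57BL/6J mice that all received a high-fat diet for 11 weeks and went 10 h without food before the liver was taken. Each liver was hybridized to its own single-colour Illumina array, and neither animal age nor sex, cage or litter was given in the sources used here. Diet, strain and food deprivation were shared by both groups, so no group here shows the genes without them. C57BL/6J mice carry a defective Mx1 gene, a known limit of this strain for studies of interferon action.

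Type I interferons, made after nucleic acids of microbes are sensed, bind the receptor IFNAR and activate the kinases JAK1 and TYK2. STAT2 and IRF9 are parts of the complex ISGF3 that then forms, which binds the interferon-stimulated response element (ISRE) in the promoters of antiviral genes. Interferon gamma, made mainly by T and NK cells, acts through the gamma-activated site (GAS) and induces IRF1, guanylate-binding and immunity-related GTPases, immunoproteasome subunits and the chemokine CXCL9. In mice, signals from the gut microbiota are known to set a low basal level of interferon signalling in several tissues.

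Promoter sequences are shown for 5 tested members that take part in the 4 pairs with the strongest joint variation between animals, described further on. Mx2 and Parp14, each paired there with Stat2, had no promoter window and are not shown. The windows run from 250 bases before to 50 bases after the annotated start, come from RefSeq on GRCm38.p6 and are printed 5' to 3' on the strand of the gene, with matches to either motif in capitals. They lie at chr10:128270248-128270547 (plus strand) for Stat2, chr5:120887564-120887863 (minus strand) for Oas1g, chr8:71537423-71537722 (minus strand) for Bst2, chr11:58199306-58199605 (plus strand) for Igtp and chr17:34187281-34187580 (minus strand) for Psmb9.
Stat2: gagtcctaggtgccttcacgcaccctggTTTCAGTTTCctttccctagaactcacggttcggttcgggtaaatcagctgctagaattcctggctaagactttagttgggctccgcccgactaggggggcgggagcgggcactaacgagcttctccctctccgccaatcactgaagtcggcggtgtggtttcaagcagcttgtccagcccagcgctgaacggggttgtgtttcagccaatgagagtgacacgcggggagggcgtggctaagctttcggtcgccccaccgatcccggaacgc
Oas1g: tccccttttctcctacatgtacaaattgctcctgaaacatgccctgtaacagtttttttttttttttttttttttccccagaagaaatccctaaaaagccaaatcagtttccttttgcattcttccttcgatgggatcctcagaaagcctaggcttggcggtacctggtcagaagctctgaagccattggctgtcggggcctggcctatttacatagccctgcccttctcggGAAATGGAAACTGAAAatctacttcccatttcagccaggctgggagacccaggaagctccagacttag
Bst2: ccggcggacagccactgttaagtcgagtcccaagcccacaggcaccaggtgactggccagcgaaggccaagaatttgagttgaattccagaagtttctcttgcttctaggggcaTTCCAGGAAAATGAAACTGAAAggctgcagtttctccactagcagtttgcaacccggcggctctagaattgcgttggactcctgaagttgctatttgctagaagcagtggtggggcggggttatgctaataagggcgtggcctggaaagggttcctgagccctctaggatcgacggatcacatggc
Igtp: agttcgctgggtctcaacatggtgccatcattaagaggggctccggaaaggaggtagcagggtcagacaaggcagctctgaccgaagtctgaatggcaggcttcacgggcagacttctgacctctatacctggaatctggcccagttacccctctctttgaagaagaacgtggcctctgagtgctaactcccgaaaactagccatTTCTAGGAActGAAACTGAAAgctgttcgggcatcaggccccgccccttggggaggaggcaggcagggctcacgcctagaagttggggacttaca
Psmb9: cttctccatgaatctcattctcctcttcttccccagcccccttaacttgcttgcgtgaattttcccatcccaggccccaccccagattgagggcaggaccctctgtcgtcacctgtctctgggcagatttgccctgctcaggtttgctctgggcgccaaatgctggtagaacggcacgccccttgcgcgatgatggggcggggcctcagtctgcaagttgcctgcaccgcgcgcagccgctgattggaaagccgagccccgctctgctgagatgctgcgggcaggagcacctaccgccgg
The ISRE was searched as GAAANNGAAA and the GAS as TTCNNNGAA, on both strands, where N is any base. Stat2 had 1 ISRE match, whose first base lay at -222 from the start, and no GAS match. Oas1g had 2 overlapping ISRE matches, at -18 and -12. Bst2 had 2 overlapping ISRE matches, at -130 and -124, and a GAS match at -136 that overlapped the first of them. Igtp had a GAS match at -45 and an ISRE match at -34. Psmb9 had neither set of letters in its window, which overlaps that of Tap1 on the other strand. Windows were held for 33 of the 42 listed genes, and 18 of these 33 (54.5%) had an ISRE match, against 3.99% of 27025 genes with a window in the same table. A GAS match was found for 9 of the 33 (27.3%), against 9.55% of all genes. Among the 22 tested members with a window, 9 (40.9%) had an ISRE match and 7 (31.8%) a GAS match. Genes that the filter removed or that had no named probe also held matches, among them Isg15 with 3 ISRE matches and Ifit1 with 2. A match describes the letters in the window and is not a measured binding site.

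The arrays of the groups were alike in brightness and in the share of probes detected. Mean raw signal was 247 ± 73.6 intensity units in germfree and 245 ± 67.4 in conventional livers (SD, n = 14 and 16), and 38.4% ± 1.60 of probes were detected in germfree and 38.4% ± 1.94 in conventional livers. The dimmest array was that of conventional liver 6, with a mean signal of 85.5 and 33.7% of probes detected. Values below are log2 signals after normalization, on which 1 unit is a doubling, and changes are germfree minus conventional. The level of a probe also depends on its sequence, so levels are not compared between genes. The number of arrays limits the precision, and p-values of the group test set the difference of the group means against the spread between these animals. The hepatocyte-defining genes that were tested, among them Apoa1, Ttr and Ahsg, had a mean level of 13.8 to 14.2 in germfree and 13.7 to 14.1 in conventional livers, which checks the liver label.

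Many of the best known interferon-stimulated genes gave no signal above background. Probes needed a detection p under 0.05 on at least 7 of the 30 arrays to enter the test. The filter removed 10 members. Of these, 7 were detected on no array by any probe, namely Ifit1, Oas2, Oas3, Oasl2, Mx1, Iigp1 and Cxcl10. They include the antiviral effector Ifit1, the chemokine Cxcl10 and the GTPase Iigp1. Fgb, listed among the hepatocyte-defining genes, and H2-D1 and Calr, listed with MHC class I, were also detected on no array. A probe without signal therefore does not show that its RNA was absent. The RNA sensor Ifih1 was detected in 1 germfree and 0 conventional livers, and Ifit3 and Tgtp1 were each detected in 2 germfree livers and 1 conventional liver. Isg15, Usp18, Oas1a, Ifi44, Ly6a and Gbp2 had no named probe and were not analysed here. Of the 26 tested members, 20 were detected on all 30 arrays.

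No interferon-stimulated gene passed an adjusted p of 0.05 in either direction (limma with Benjamini-Hochberg adjustment over all genes), 0 of 26, while 6.49% of all 9084 genes did. By direction, 3.75% of all genes were higher and 2.74% lower in germfree liver. At an unadjusted p under 0.05, 2 members were higher (background 10.0%) and 6 were lower (background 8.74%). At an adjusted p under 0.1, 4 members were lower, namely Cxcl9, Psmb8, Igtp and Rsad2, where 4.17% of all genes were lower and 9.53% passed in either direction. The median log2 change of the 26 members was -0.02, with quartiles of -0.19 and 0.02, beside -0.0005 with quartiles of -0.083 and 0.088 for all genes. No member changed by more than 0.5 on the log2 scale, as 194 of all genes did. The 95% interval lay within 0.5 either way for 21 of the 26 members (80.8%), and for 89.8% of all genes. The widest bounds were -0.71 for Cxcl9 and 0.54 for Mx2. For every one of the 26 members the ranges of the groups overlapped, a count that was not made over all genes. The ranges also overlapped for Irf5, described further on, which passed the test. Overlap therefore does not show that a gene was unchanged.

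**Figure D1:**
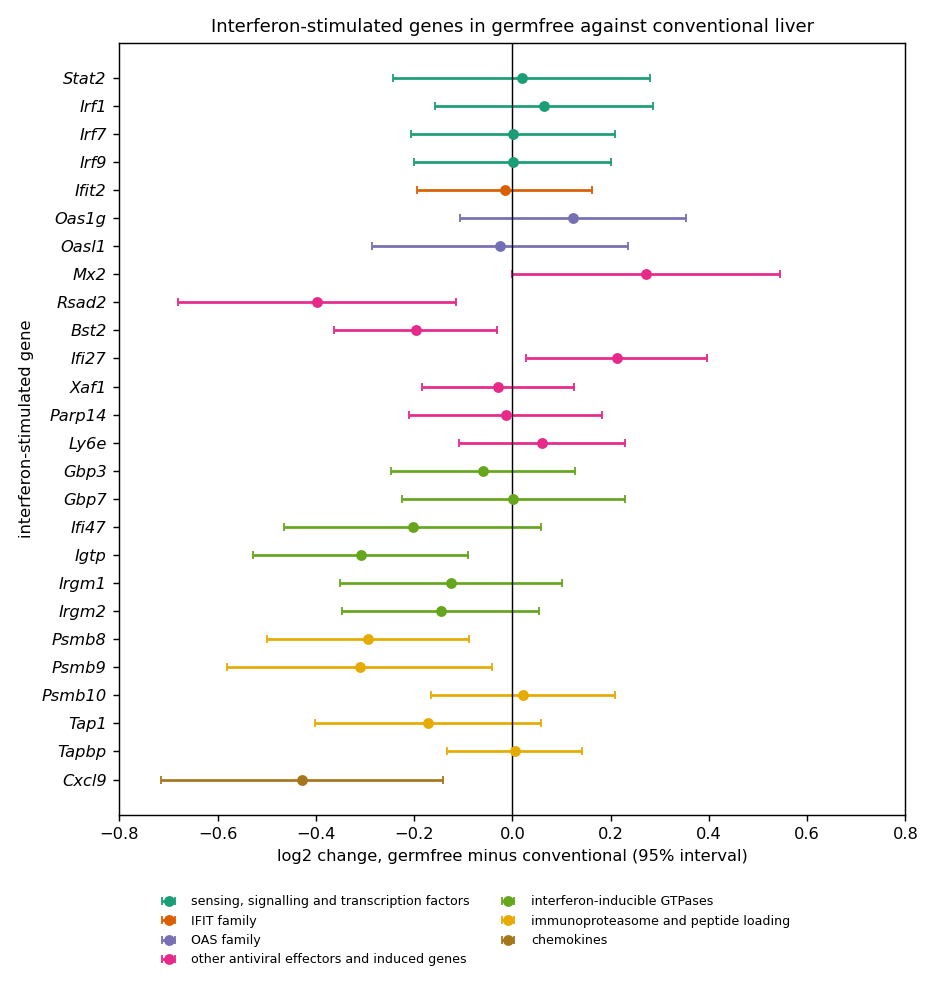
Log2 change (x axis, germfree minus conventional, 14 against 16 livers) of each of the 26 interferon-stimulated genes tested (y axis), coloured by role, with bars for the 95% interval. Cxcl9, at -0.43, and Rsad2, at -0.40, lie farthest to the left, Mx2, at 0.27, lies farthest to the right, and the 4 transcription factors at the top lie close to 0.

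The transcription factors of the pathway had log2 changes between 0.00 and 0.06. Irf9, the DNA-binding part of ISGF3, ran from a lowest value of 6.68 through a median of 7.31 to a highest of 7.86 in germfree livers and from 6.78 through 7.27 to 7.81 in conventional livers. The log2 change of Irf9 was 0.00 ± 0.10 (SE), with a 95% interval of -0.20 to 0.20. Irf7, which amplifies type I interferon production, had medians of 5.81 in germfree and 5.77 in conventional livers and a change of 0.00 ± 0.10. Stat2, a component of ISGF3, had medians of 6.18 in germfree and 6.24 in conventional livers and a change of 0.02 ± 0.13. Irf1, an early target of interferon gamma, had medians of 7.01 in germfree and 6.87 in conventional livers and a change of 0.06 ± 0.11, while a dimmer second probe, detected in 3 germfree and 6 conventional livers, gave -0.05. None of these 4 genes passed an unadjusted p of 0.05, and their 95% intervals reached down to -0.24 for Stat2 and up to 0.29 for Irf1.

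Isg15 and Usp18 had no named probe, and most of the listed IFIT and OAS genes were removed by the filter. Ifit2, which binds viral RNA, was detected in 8 germfree and 11 conventional livers and had a log2 change of -0.02 ± 0.09. Oasl1, a member of the oligoadenylate synthetase family, was detected in 9 germfree and 10 conventional livers, with a change of -0.02 ± 0.13. Oas1g, a synthetase that senses double-stranded RNA and leads to activation of RNase L, ran from 5.38 through 6.13 to 6.47 in germfree livers and from 5.47 through 5.94 to 6.49 in conventional livers. Oas1g was detected on all 30 arrays by the probe used, while its other named probes were each detected on 4 arrays at most and did not pass the filter. Its change was 0.12 ± 0.11, and its probe may also take up RNA of the near-identical paralog Oas1a. None of these passed an unadjusted p of 0.05.

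Other antiviral effectors and induced genes lay on both sides of 0, and none passed the adjusted threshold. Rsad2, which encodes viperin, ran from 5.92 through 6.90 to 7.65 in germfree livers and from 6.91 through 7.16 to 7.82 in conventional livers. In 8 of 14 germfree livers Rsad2 lay below the lowest conventional value, in liver 6 by a margin that vanishes at 2 decimals. The log2 change of Rsad2 was -0.40 ± 0.14 (adjusted p = 0.0854). Without germfree liver 8, its highest germfree value, the change was -0.46 with an adjusted p of 0.0312. Leaving out that value widens the difference in any case. Rsad2 passed in 1 of 30 fits with an animal left out, where its adjusted p reached up to 0.154. Bst2, or tetherin, which holds budding virions at the cell surface, ran from 10.8 through 11.3 to 11.6 in germfree livers and from 11.1 through 11.5 to 11.7 in conventional livers. Here 12 of 14 germfree livers lay below the conventional mean and 7 conventional livers lay above every germfree one, with a change of -0.20 ± 0.08 (adjusted p = 0.164).

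Both members higher at an unadjusted p under 0.05 belonged to this part of the list. Ifi27, which encodes a membrane protein induced strongly by type I interferon, ran from 9.99 through 10.2 to 10.8 in germfree livers and from 9.69 through 10.2 to 10.6 in conventional livers. Its log2 change was 0.21 ± 0.09 (adjusted p = 0.182), and 12 of 14 germfree livers lay above the conventional mean. Mx2, a gene of the dynamin-like GTPase family, ran from 5.23 through 5.87 to 6.30 in germfree livers and from 4.71 through 5.65 to 6.25 in conventional livers. Its change was 0.27 ± 0.13 (adjusted p = 0.266), with 11 of 14 germfree livers above the conventional mean. Ly6e, Xaf1 and Parp14 had changes of 0.06, -0.03 and -0.01. Neither Ifi27 nor Mx2 passed the adjusted threshold, and under both median scalings of the arrays neither was past an unadjusted p of 0.05.

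Interferon-inducible GTPases attack the vacuoles of intracellular microbes. Their log2 changes ran from -0.31 to 0.002, with a median of -0.14 over the 6 tested of 9 listed. Igtp, also called Irgm3, ran from 6.99 through 7.74 to 8.15 in germfree livers and from 7.54 through 8.02 to 8.52 in conventional livers. Of the germfree livers, 12 of 14 lay below the conventional mean, and 6 conventional livers lay above every germfree one. The log2 change of Igtp was -0.31 ± 0.11 (adjusted p = 0.0827). The adjusted p became 0.0487 without conventional liver 5, its lowest conventional value, and 0.0494 without germfree liver 7, its highest germfree value. Leaving out either value widens the difference in any case. Igtp passed in 2 of 30 fits with an animal left out, where its adjusted p reached up to 0.15. Ifi47 changed by -0.20 ± 0.13, Irgm2 by -0.15 ± 0.10 and Irgm1 by -0.13 ± 0.11. Gbp3 and Gbp7, guanylate-binding proteins, had changes of -0.06 ± 0.09 and 0.00 ± 0.11. None of these 5 passed an unadjusted p of 0.05.

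The immunoproteasome, the proteasome form that interferon gamma builds for cutting antigenic peptides, was measured in full. Psmb8, the inducible subunit that takes the place of PSMB5, ran from 5.32 through 5.68 to 6.21 in germfree livers and from 5.57 through 5.97 to 6.75 in conventional livers. Of the germfree livers, 13 of 14 lay below the conventional mean of Psmb8. The log2 change was -0.29 ± 0.10 (adjusted p = 0.0779). The adjusted p was 0.0394 without germfree liver 1, its highest germfree value, and 0.0487 without conventional liver 16, its lowest conventional value. Leaving out either value widens the difference in any case. Psmb8 passed in 2 of 30 fits with an animal left out, where its adjusted p reached up to 0.128. Psmb9, which takes the place of PSMB6, ran from 7.05 through 8.09 to 8.33 in germfree livers and from 7.76 through 8.18 to 8.62 in conventional livers. In 5 germfree livers Psmb9 lay between 7.05 and 7.46, below every conventional value, and the other 9 lay between 7.91 and 8.33, inside the conventional range. Its log2 change was -0.31 ± 0.13 (adjusted p = 0.180).

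The third inducible subunit gave different values by probe. Psmb10, which takes the place of PSMB7, had a log2 change of 0.02 ± 0.09 by the probe used and of -0.19 by a second probe, both detected on all 30 arrays, so its direction depends on the probe. Tap1, a subunit of the transporter that carries peptides into the endoplasmic reticulum, was detected in 6 germfree and 12 conventional livers and had a change of -0.17 ± 0.11. Tapbp, which encodes tapasin and links that transporter to class I molecules, had the smallest spread of the members, a within-group SD of 0.173, and a change of 0.01 ± 0.07. The constitutive catalytic subunits Psmb5, Psmb6 and Psmb7 had changes of -0.18, -0.10 and -0.08, and 0 of 3 passed the test.

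Cxcl9, the interferon gamma-induced chemokine that attracts T cells through CXCR3, had the lowest change of the members. It ran from 5.43 through 6.58 to 7.26 in germfree livers and from 6.39 through 6.82 to 7.43 in conventional livers, and 4 germfree livers lay below the lowest conventional one. The log2 change of Cxcl9 was -0.43 ± 0.14 (adjusted p = 0.0624). Single animals moved this call, as the adjusted p was 0.0249 without germfree liver 7, 0.0262 without germfree liver 2, 0.0434 without germfree liver 4 and 0.044 without conventional liver 16. Cxcl9 passed in these 4 of 30 fits with an animal left out, and its adjusted p reached up to 0.113 in the others. The genes lie at chr5:92321331-92328079 for Cxcl9, chr12:26442743-26456452 for Rsad2, chr17:34198195-34201454 for Psmb8 and chr17:34182030-34187330 for Psmb9 on GRCm38.p6.

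Cxcl9, Rsad2 and Psmb9 shared a wider spread in germfree livers. The SD was 0.52 in germfree and 0.28 in conventional livers for Cxcl9, 0.54 in germfree and 0.24 in conventional livers for Rsad2, and 0.50 in germfree and 0.25 in conventional livers for Psmb9. These 3 members (11.5%) had an SD in germfree livers at least 1.8 times that in conventional livers, as did 2.28% of all genes, a ratio picked after the values were seen and not tested. The median ratio was 0.963 over the members and 0.986 over all genes, and 11 of 26 members had the larger SD in germfree livers. Germfree livers 6, 9 and 12 were below the conventional range for all 3 genes. Germfree liver 12 was below the conventional range for 9 of the 26 members and germfree liver 9 for 6, while germfree livers 1 and 8 were below it for 0. Such counts were not made over all genes. A trait of these members therefore cannot be told apart from one of the whole array.

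**Figure D2:**
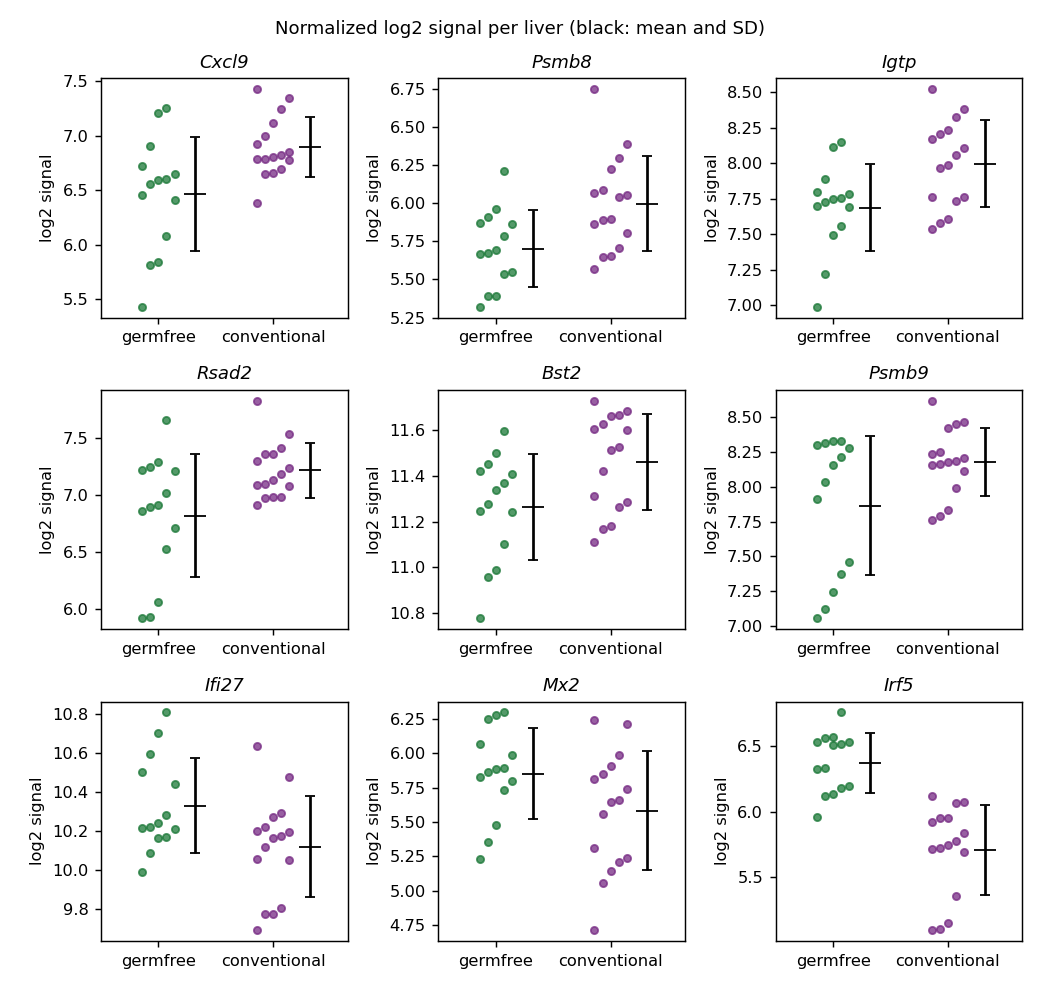
Normalized log2 signal (y axis) of each liver for the 8 interferon-stimulated genes at an unadjusted p under 0.05 and for Irf5, with germfree livers (green, n = 14) left of conventional livers (purple, n = 16) and black bars for mean and SD. For Psmb9 the 5 lowest germfree livers stand apart at 7.05 to 7.46, and for Irf5 the lowest germfree liver, at 5.96, overlaps the upper part of the conventional range, which ends at 6.12.

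Upstream of these genes 1 change passed the test. Irf5, a transcription factor activated downstream of Toll-like receptors that drives inflammatory cytokine genes, ran from 5.96 through 6.42 to 6.76 in germfree livers and from 5.09 through 5.76 to 6.12 in conventional livers. Each of the 14 germfree values was above the conventional mean. The log2 change of Irf5 was 0.67 ± 0.10 (SE), with an adjusted p of 6.49e-05, and 0.36 without background correction, where it also passed. It was the only one of the 12 tested genes of nucleic acid sensing and IRF activation (19 listed, median change -0.01) to pass. Irf2, a repressor of interferon-responsive genes, and Mavs, the adaptor of RNA sensors, had changes of -0.15 and -0.18 and did not pass. Toll-like receptor genes Tlr3, Tlr7 and Tlr9 were detected on no array.

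Receptors and their kinases did not differ past the threshold. Of 13 tested receptor and JAK-STAT genes (15 listed), 0 passed and 0 had an unadjusted p under 0.05, with a median log2 change of 0.06. The changes with the smallest p were 0.15 ± 0.09 for the kinase gene Tyk2, -0.13 ± 0.09 for Stat3, a factor of the interleukin-6 response, and 0.12 ± 0.08 for Pias1, a SUMO ligase gene. Of 17 tested further interferon-induced effectors (35 listed) 0 passed, with a median of -0.06. The smallest p belonged to Ube2l6, the ISG15-conjugating enzyme, at -0.20, the exonuclease gene Isg20 at -0.16 and the ubiquitin ligase gene Dtx3l at -0.19, with Isg20 detected in 1 germfree and 6 conventional livers. Of 11 tested genes of MHC class I and peptide loading (13 listed) 0 passed, with a median of 0.02. Among these H2-T23, the mouse Qa-1 gene, had a change of 0.15, the peptide-trimming Erap1 0.18 and the light chain gene B2m -0.11.

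Markers of immune cells were read beside these values, since a whole liver holds several cell types. In bulk tissue, fewer cells of a type and less RNA per cell cannot be told apart. Of 10 tested Kupffer cell and macrophage markers (14 listed) 4 were lower in germfree liver and 0 higher, with a median log2 change of -0.40. Those 4 were the Kupffer cell lectin gene Clec4f at -0.48 ± 0.10 (adjusted p = 0.00180), the complement genes C1qa at -0.41 ± 0.09 and C1qc at -0.41 ± 0.13, and the iron exporter gene Slc40a1 at -0.58 ± 0.13. The mean level of the 10 markers ran from 6.24 to 7.22 in germfree and from 6.59 to 7.62 in conventional livers, and Cd5l and Cd163 were detected on no array. The part of these cells in the lower values of Cxcl9, Psmb8, Igtp and Rsad2 was not tested.

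Lymphocyte markers were mostly below background. Of 16 listed T, NK and innate lymphoid markers, 4 were tested and 10 were detected on no array, among them Ifng itself, Cd3e, Nkg7, Gzma, Gzmb and Ncr1. Cd247, the T cell receptor zeta chain gene, was detected in 2 germfree and 12 conventional livers, so it passed the filter through the conventional group. Its fitted change of -0.30 ± 0.09 (adjusted p = 0.0478) sets most germfree livers at background and is not a measured size, while Klrb1c, Cd3d and Cd2 had changes of -0.09, -0.07 and -0.06. The mean level of these 4 ran from 4.67 to 5.03 in germfree and from 4.85 to 5.29 in conventional livers. Of 2 tested dendritic cell markers (8 listed), Tcf4, which is not restricted to these cells, was higher at 0.31 ± 0.08, and the plasmacytoid marker Siglech had a change of -0.08. The single tested B cell marker, Ms4a1, had a change of -0.01.

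Neutrophil and monocyte markers did not pass, 0 of 5 tested (10 listed), with changes of -1.08 ± 0.39 for Lcn2, -0.47 ± 0.20 for S100a9 and -0.36 ± 0.19 for S100a8. Of 10 tested sinusoidal endothelial markers (12 listed), the scavenger receptor gene Stab2 was higher at 0.47 ± 0.11 (adjusted p = 0.00455) and 0 were lower. The median over these 10 was 0.04, and Lyve1, at -0.49 ± 0.20, and Cdh5, at -0.23 ± 0.13, did not pass. Of 8 tested hepatocyte genes (12 listed), Ahsg was higher at 0.27 ± 0.06 and Trf at 0.23 ± 0.07. Under median scaling of the arrays 0 marker genes were called higher and 2 lower, in place of 4 and 5. The part of these cell types in the members' values was not tested.

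Between animals of the same group, some interferon-stimulated genes varied together. Covariation was measured as Pearson's r of the deviations from the group means over all 30 livers, with 100000 permutations of animals within groups (two-sided). Of the 325 pairs among the 26 members, 25 passed an adjusted p of 0.05 over the 325 pairs (7.69%), all with r above 0. The weakest of the 25 had an r of 0.536, which 1.46% of 41254986 pairs among all genes reached. These shares rest on different criteria, p for the members and r for all genes. Psmb9 and Cxcl9, for example, had an r of 0.542 and did not pass (adjusted permutation p = 0.075). The median r was 0.164 over member pairs, with quartiles of -0.0235 and 0.35, and 0.001 over all pairs, with quartiles of -0.169 and 0.172. Within germfree livers alone the median was 0.189, and within conventional livers alone 0.149. In all, 17 members took part in at least 1 of the 25 pairs. Parp14, an ADP-ribosyltransferase, had the most, with 6, followed by Irf9 with 5. Ifit2, Oasl1, Ifi27, Xaf1, Ly6e, Gbp7, Ifi47, Tapbp and Cxcl9 took part in none.

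The strongest pair joined a component of ISGF3 and another interferon-induced gene. Stat2 and Mx2 had an r of 0.869 (permutation p = 1e-05, the smallest these permutations can give, adjusted p = 0.000812) and a Spearman rho of 0.885 (permutation p = 1e-05). The r was 0.91 in germfree and 0.855 in conventional livers, 0.839 without the 2 livers farthest from the median of Stat2, and 0.828 without the 3 dimmest arrays. Stat2 and Parp14 had an r of 0.74 (permutation p = 1e-05, adjusted p = 0.000812) and a rho of 0.644 (permutation p = 0.00029), with 0.673 in germfree and 0.781 in conventional livers, 0.68 without the 2 farthest livers and 0.664 without the 3 dimmest arrays.

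Oas1g and Bst2 had an r of 0.777 (permutation p = 1e-05, adjusted p = 0.000812) and a rho of 0.73 (permutation p = 3e-05). The r was 0.854 in germfree and 0.697 in conventional livers and 0.701 without the 2 farthest livers. Both genes had 2 ISRE matches, as did Gbp3 and Irgm1, whose r with each other was -0.016. Covariation was not tested against the promoter matches. Among genes known for their response to interferon gamma, Igtp and Psmb9 had an r of 0.734 (permutation p = 1e-05, adjusted p = 0.000812) and a rho of 0.686 (permutation p = 0.00013), with 0.809 in germfree and 0.718 in conventional livers and 0.61 without the 2 farthest livers. Irf7 and Psmb8 had an r of 0.696 (permutation p = 3e-05, adjusted p = 0.00195) and a rho of 0.596 (permutation p = 0.00087), with 0.604 in germfree and 0.758 in conventional livers and 0.677 without the 2 farthest livers.

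**Figure D3:**
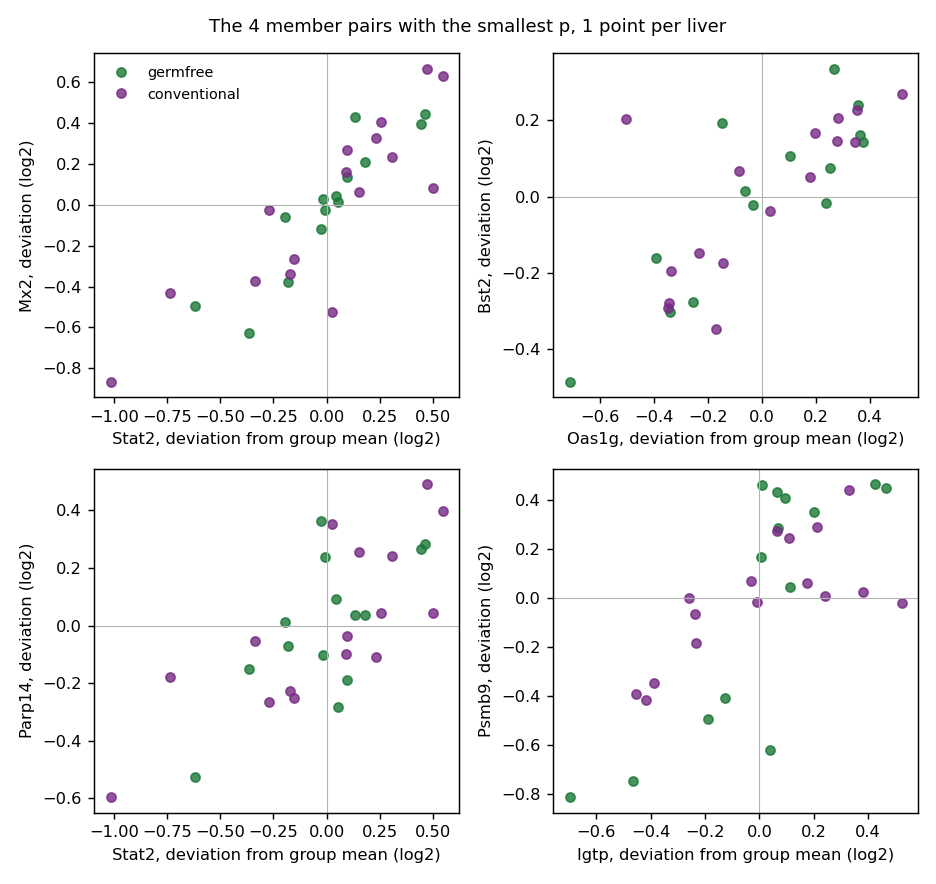
Deviation from the group mean (log2) of the first gene (x axis) and second gene (y axis) for the 4 pairs with the smallest p, with 1 point per liver, germfree green (n = 14) and conventional purple (n = 16). The lowest conventional point in both Stat2 panels is liver 6, the dimmest array, and the r of Stat2 and Mx2 is 0.869 with it and 0.828 without the 3 dimmest arrays.

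The other 20 pairs had an r of 0.536 to 0.65. For 24 of the 25 pairs r was above 0 within each group, and for 10 the unadjusted p was under 0.05 within each. The exception was Stat2 and Tap1, with an r of -0.0249 in germfree and 0.774 in conventional livers, a difference that was not tested. Tap1 was detected in 6 of 14 germfree and 12 of 16 conventional livers, so most of its germfree values lay at background. Over both groups the r of Stat2 and Tap1 was 0.313 without the 2 farthest livers. Irgm1 and Irgm2 rested most on single animals, since their r of 0.574 became 0.232 without the 2 farthest livers. Over the 25 pairs the lowest r without the 3 dimmest arrays was 0.446. Psmb9 and Tap1, neighbours that share a bidirectional promoter region, had an r of 0.368 (permutation p = 0.02, adjusted p = 0.115), with a rho of 0.392 (permutation p = 0.0379) and 0.312 without the 2 farthest livers.

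**Figure D4:**
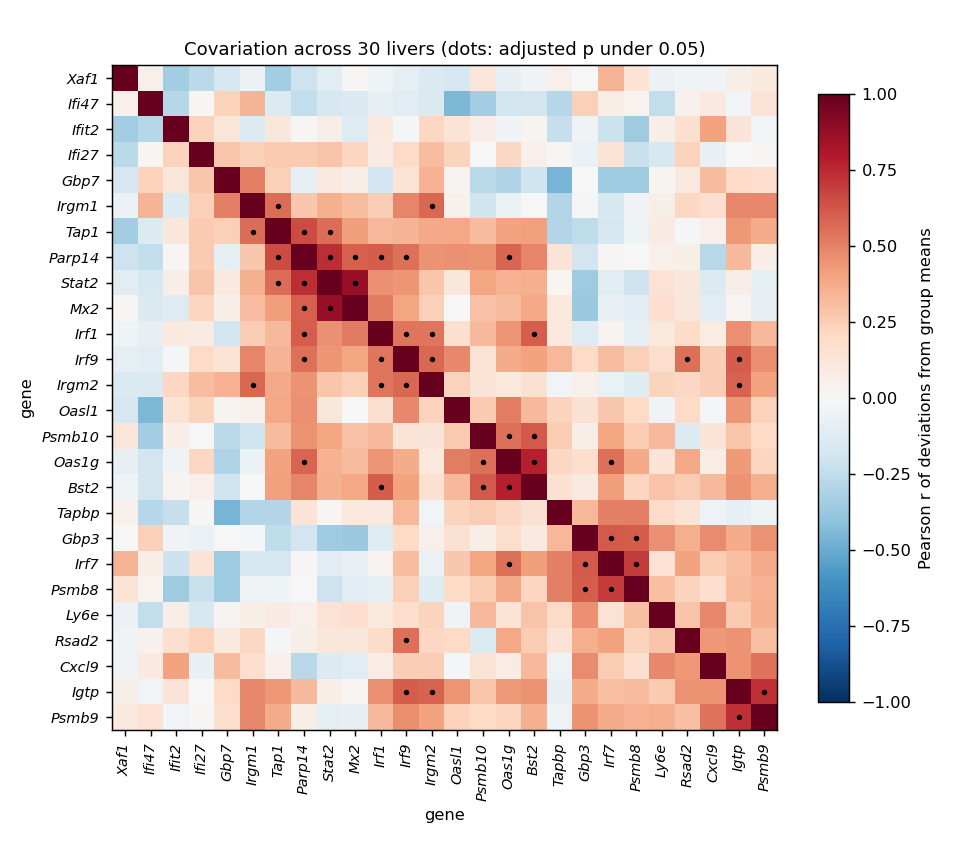
Pearson's r of deviations from group means over the 30 livers for each pair of the 26 interferon-stimulated genes (both axes, ordered by similarity), with red above 0, blue below 0 and dots on the 25 pairs past an adjusted p of 0.05. Among other pairs, dots join Parp14, Stat2 and Mx2, join Oas1g, Bst2 and Psmb10, and join Irf7, Gbp3 and Psmb8. Irf9 has dots with Igtp, Irgm2, Parp14, Irf1 and Rsad2, and no dot falls on a blue cell.

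Some members also varied with the main axis of variation within groups or with measures of the array. That axis, the first principal component of the deviations over all genes, correlated with Stat2 at an r of 0.703, Parp14 at 0.685, Mx2 at 0.644 and Psmb10 at 0.53, each with an adjusted permutation p under 0.05 over 78 tests. With that component removed, the r of Stat2 and Mx2 was 0.766, of Stat2 and Parp14 0.499, of Mx2 and Parp14 0.279 in place of 0.597, of Oas1g and Bst2 0.725 and of Igtp and Psmb9 0.739. The share of probes detected correlated with Irf7 at -0.539 and with Gbp7 at 0.643, and the mean raw signal with Xaf1 at -0.538. Stat2, Mx2, Parp14 and Psmb10 did not pass against mean signal or detected share. What the first principal component reflects was not tested.

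Single animals were high or low across many members. The mean standardized deviation over the 26 members was lowest in germfree liver 12, at -1.04, where 2 of 26 members lay above the germfree mean, and highest in germfree liver 7, at 0.658. Among conventional livers it was lowest in liver 6, at -0.623, the dimmest array, and highest in liver 7, at 0.629. Against the mean of the other members, Irf9 had the highest r, 0.745, followed by Igtp at 0.724, Bst2 at 0.625 and Oas1g at 0.6, and the median over members was 0.407. Ifi47 had the lowest, -0.152. Across the 9058 other genes the r with the members' mean had a median of -0.00575 and quartiles of -0.16 and 0.157. The named genes with the highest r over the 30 livers were Rpa3 at 0.626, Nr1d1 at 0.619, Syt1 at 0.616, Col27a1 at 0.606, Apol9b at 0.594 and Rngtt at 0.592. The mean of the further interferon-induced effectors had an r of 0.626 with the members' mean, while its single genes had a median r of 0.184. List means gave 0.482 for nucleic acid sensing, 0.335 for receptors and JAK-STAT, 0.316 for constitutive proteasome subunits and 0.105 for MHC class I. They gave -0.0969 for Kupffer cell markers, -0.292 for hepatocyte genes and -0.393 for T, NK and innate lymphoid markers. The remaining marker lists lay between -0.153 and 0.193. These values describe points that share their arrays and carry no test.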

How the data were processed

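The authors deposited raw bead intensity per probe (not normalized) and a detection p-value beside it, per the file headers, and GenomeStudio is named in the submitters' processing notes. The 30 labelled arrays were processed with neqc of limma 3.58.1 in R 4.3.3, that is normexp correction using detection p-values, an offset of 16, quantile normalization and log2. The signal table holds 33 further arrays without a sample in the labels, which were not used. The filter left 10525 of 24613 probes, and the probe with the highest mean stood for its gene. Groups were tested by limma's lmFit and eBayes (two-sided, no covariate), and p-values were adjusted by Benjamini-Hochberg over 9084 genes. Scripts were tested on simulated data.

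The members, pathway lists and marker lists were chosen with earlier results of these data known. Named genes are all listed members, list genes past the threshold (otherwise up to 3 with the smallest p) and the 6 named genes most like the members' mean. Alternatives covered the authors' quantile normalized intensity values, background correction, normalization, filters, array weights, covariates, thresholds and single arrays left out. Plots used matplotlib 3.10.9.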

Additional observations from a re-analysis of the deposited data

How the results depend on the processing

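Most results kept their direction and their side of the threshold. Genes higher in germfree liver (341) numbered 72 under median scaling and 909 at an unadjusted p under 0.05, and genes lower (249) numbered 50 under median scaling, 379 at an adjusted p under 0.1 and 794 unadjusted. With single animals left out, genes higher ran from 292 to 364 and genes lower from 210 to 274. Members called lower (0) numbered 1 with array weights, 1 with the first principal component as a covariate, 4 at an adjusted p under 0.1 and 6 unadjusted, and 0 to 2 with single animals left out. Members called higher (0) numbered 2 unadjusted and 0 with any single animal left out. With the replicate number as a block, which covers 28 arrays, 2 members were called lower, Cxcl9 (log2 change -0.47, adjusted p = 0.0405) and Psmb8 (-0.32, adjusted p = 0.0332), and 3 marker genes were called lower. On those 28 arrays without the block, 0 members and 3 marker genes were called lower. The block moved no other count reported here by over 1.5 times. Same-numbered animals had correlations of deviations of -0.18 to 0.373, median 0.0909, with 7 of 14 over 0.1. Differently numbered animals were not compared, so these values cannot decide whether the numbers pair the animals. Cxcl9 also passed with array weights (-0.52, adjusted p = 0.0288) and with the first principal component (adjusted p = 0.0419). Its adjusted p ran from 0.0288 to 0.437 over 15 settings. Over the same settings the highest adjusted p was 0.498 for Rsad2, 0.576 for Igtp and 0.345 for Psmb8. Of members at an unadjusted p under 0.05, the higher ones (2) numbered 0 under both median scalings and 1 without background correction, with the authors' values, cyclic loess, no filter, a stricter filter, the detected share as a covariate or without the 3 dimmest arrays. With single animals left out they numbered 0 to 2. The lower ones (6) numbered 3 under median scaling and 5 to 6 with single animals left out. The median member log2 change ran from -0.0493 to -0.00573 with single animals left out. Signs changed for 6 members in at least 1 of 15 settings, none past the threshold: Stat2, Irf7, Irf9, Parp14, Gbp7 and Psmb10. Pathway genes lower (0) numbered 6 unadjusted, and pathway genes higher stayed at 1, Irf5, which passed in all 15 settings and 30 fits with an animal left out (log2 change 0.36 to 0.70). Marker genes higher (4) numbered 0 under median scaling, 2 under median scaling over probes detected on all arrays and 3 to 4 with single animals left out. Marker genes lower (5) numbered 2 under median scaling, 11 unadjusted, 3 under median scaling over detected probes, with no filter or without the 3 dimmest arrays, and 3 to 5 with single animals left out. Covarying pairs (25) numbered 242 under median scaling, where all 25 recurred and the median r was 0.536, 16 without the 2 farthest livers (germfree 7 and 12), 8 in conventional livers alone (7 shared) and 3 in germfree livers alone (3 shared). Without the 3 dimmest arrays 25 pairs passed, 19 of them shared. These alternatives used 20000 permutations, and fits without an animal kept the normalization. Median scaling over detected probes and leaving out the dimmest arrays were added after seeing the data. The causes of these differences were not tested. Dim probes limit what Ifit2, Oasl1 and Tap1 can show.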
